A study of Mus musculus with 4 samples.

Results

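The Gimap genes encode GTPases of immunity-associated proteins, a family of small GTP-binding proteins found in vertebrates among others. They were read by symbol from RNA sequencing of mouse hematopoietic stem cells (HSCs). Of 8 symbols taken as members, Gimap1, Gimap3, Gimap4, Gimap6, Gimap8 and Gimap9 were listed, which is 6 of 23450 listed genes, and Gimap5 and Gimap7 were not analysed here. RNA came from 2000 sorted bone marrow cells per library. The long-term HSCs (LT-HSC), with 2 libraries, lack CD48 and CD34, carry CD150 and are high for the tetraspanin CD9. They were set against 2 libraries of short-term HSCs (ST-HSC), which lack CD48, carry CD150 and are low for CD9, with no CD34 gate given. The sources used here do not give the strain, age or number of the mice. Since no label ties a library to an animal of its own, p-values reflect the spread between these libraries, and that spread may be technical.

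Gimap proteins share a GTP-binding domain of the AIG1 type and mostly sit on the membranes of intracellular organelles. They are best known from lymphocytes, where members govern survival, death and autophagy. In mice, loss of Gimap5 shortens the life of T cells and also impairs hematopoietic stem cells. The mouse genes form a cluster on chromosome 6 in the order Gimap8, Gimap9, Gimap4, Gimap6, Gimap7, Gimap1, Gimap5 and Gimap3.

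Levels are given in CPM, the reads of a gene scaled to a fixed library total, and each pair of values is in the order of replicate 1 and replicate 2. The libraries held 13077396 to 16156007 reads, of which 3 reads equal 0.186 to 0.229 CPM. A gene with at most 1 read stands at 0. In bulk samples, fewer expressing cells and less RNA per cell cannot be told apart. Of the sort markers, Cd9 was at 134 and 124 CPM in the LT-HSC libraries, against 100.4 and 113 CPM in the ST-HSC libraries. Cd48 was at 0.229 and 0.186 CPM in LT-HSC, against 16.5 and 38.8 CPM in ST-HSC. Cd48 transcripts were thus read in ST-HSC although both groups are described as lacking CD48, and the cause was not tested. Cd34 was at 134 and 201 CPM in LT-HSC, against 324 and 429.9 CPM in ST-HSC. HSC-associated genes were read in both groups. All 11 listed members of that list passed the filter on low values, and their summed level was 4387 and 4581 CPM in LT-HSC, against 3205 and 3453 CPM in ST-HSC.

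The results below turn on Gimap8 and Gimap9, which differed most between the groups, and on Gimap6 and Gimap1, which had the most reads and differed least. The 250 bases upstream of the start of these genes are shown 5′ to 3′, from RefSeq on build GRCm38.p6, with capitals marking any match to the motifs named after them.
Gimap8, chr6:48646984-48647233, plus strand: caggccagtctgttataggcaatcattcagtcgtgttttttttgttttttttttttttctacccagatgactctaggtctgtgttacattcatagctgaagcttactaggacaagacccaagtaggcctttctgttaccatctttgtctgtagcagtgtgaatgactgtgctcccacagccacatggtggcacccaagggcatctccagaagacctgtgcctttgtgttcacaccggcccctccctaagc
Gimap9, chr6:48675885-48676134, plus strand: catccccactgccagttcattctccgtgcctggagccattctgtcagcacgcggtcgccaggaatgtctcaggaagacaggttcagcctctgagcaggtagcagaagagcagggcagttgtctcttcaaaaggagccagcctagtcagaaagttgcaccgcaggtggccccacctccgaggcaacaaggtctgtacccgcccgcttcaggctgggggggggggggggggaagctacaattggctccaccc
Gimap6, chr6:48708245-48708494, minus strand: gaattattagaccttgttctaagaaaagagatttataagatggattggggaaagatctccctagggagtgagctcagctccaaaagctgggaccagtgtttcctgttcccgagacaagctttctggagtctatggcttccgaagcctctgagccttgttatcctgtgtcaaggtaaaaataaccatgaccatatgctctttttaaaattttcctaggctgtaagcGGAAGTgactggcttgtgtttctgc
Gimap1, chr6:48738797-48739046, plus strand: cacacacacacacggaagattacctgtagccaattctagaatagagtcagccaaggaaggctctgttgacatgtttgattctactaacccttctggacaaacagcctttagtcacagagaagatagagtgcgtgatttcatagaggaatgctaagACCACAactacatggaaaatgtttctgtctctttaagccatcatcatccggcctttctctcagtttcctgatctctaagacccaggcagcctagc

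The motifs were searched on both strands. They were GGAAGT, a form of the ETS factor site, AGATAA and TGATAA for GATA factors, TGTGGT for RUNX factors, and the E-boxes CAGCTG and CACGTG. Shorter or other forms of these sites were not searched. Both E-boxes read the same on either strand, and no match in the windows shown overlapped another. The Gimap6 window held GGAAGT at 25 bases before the start, a motif found in 19.8% of 32536 windows of the same length. In the Gimap1 window TGTGGT lay on the opposite strand at 95 bases before the start, and 14.0% of windows hold it. None of the 6 motifs was in the Gimap8 or Gimap9 window. A match is a description of the letters only. GC content was 46.8% for the Gimap8 window shown, 61.2% for Gimap9, 43.6% for Gimap6 and 44.4% for Gimap1, against a median of 52.4% over all windows. RefSeq gives Gimap8 a further start, and its window, not shown, had 52.0% GC and 0 motif matches.

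Both groups carried transcripts of the 6 listed members, and per length the same pair of genes ranked highest, the same pair next and the same pair lowest in each library. Taken as ratios, the steps between pairs were uneven. In ST-HSC 1 the ratio of the upper to the middle pair was smaller than the ratio within either of the lower pairs. Scaled to transcript length, Gimap6 was at 288 and 302 CPM per kb in the LT-HSC libraries, against 241 and 282 CPM per kb in the ST-HSC libraries. Gimap1 was at 320 and 270 CPM per kb in LT-HSC, against 218 and 275 CPM per kb in ST-HSC. Gimap1 ranked above Gimap6 in LT-HSC 1 and below it in the other libraries, so the order of this upper pair was not settled. The middle pair was Gimap9, at 79.4 and 91.7 CPM per kb in LT-HSC against 40.4 and 47.1 CPM per kb in ST-HSC, and Gimap4, at 67.0 and 139.8 CPM per kb in LT-HSC against 117 and 47.9 CPM per kb in ST-HSC. Their order turned between the LT-HSC libraries, while Gimap4 was above Gimap9 in both ST-HSC libraries, only narrowly in ST-HSC 2. The lowest pair was Gimap3, at 12.3 and 28.1 CPM per kb in LT-HSC against 8.15 and 14.6 CPM per kb in ST-HSC, and Gimap8, at 17.5 and 19.4 CPM per kb in LT-HSC against 2.50 and 5.09 CPM per kb in ST-HSC. Gimap8 lay below Gimap3 in both ST-HSC libraries and in LT-HSC 2, and above it in LT-HSC 1. Lengths are those of the GENCODE M21 transcript with the longest coding part, 1384 to 3138 bases, and the authors' gene models may differ.

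**Figure D1:**
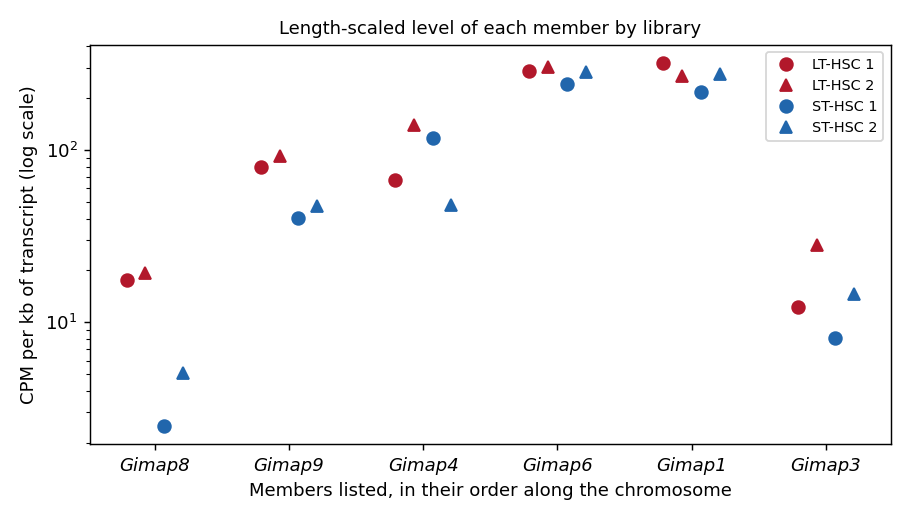
CPM per kb of transcript on a log axis for each listed Gimap gene in its order along the chromosome, with LT-HSC in red and ST-HSC in blue, circles for replicate 1 and triangles for replicate 2. Gimap6 and Gimap1 lie between 218 and 320 CPM per kb in all 4 libraries, and Gimap8 spans 2.50 to 19.4 CPM per kb.

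The comparison asked how transcripts of CD9-high LT-HSC differ from those of CD9-low ST-HSC. No member passed the test over all genes. With limma on log2(CPM + 1) and Benjamini-Hochberg adjustment, 0 of 12608 tested genes were higher and 0 lower in LT-HSC at an adjusted p under 0.05 (0% of genes in each direction). At an unadjusted p under 0.05 by limma, 368 genes (2.92%) were higher and 452 (3.59%) lower, and limma-voom on the recovered reads gave 299 and 331, with 0 past the adjusted threshold. The unadjusted counts, higher then lower, were 185 and 620 without LT-HSC replicate 1, 232 and 886 without LT-HSC replicate 2, 405 and 151 without ST-HSC replicate 1, and 285 and 128 without ST-HSC replicate 2. Fold changes of single genes are therefore values and not calls. All 6 listed members passed the filter on low values. At an unadjusted p under 0.05, 2 of the 6 members were higher in LT-HSC and 0 lower. For 3 of the 6 members the LT-HSC libraries were both higher than either ST-HSC library, as for 16.1% of all tested genes, and for 0 members both were lower, as for 17.5% of genes. The 6 fold changes were all above 0 (49.2% of tested genes), with a median log2 fold change of 0.56 against -0.01 over all tested genes. The median of the members was 0.98 without LT-HSC replicate 1 and 0.27 without LT-HSC replicate 2. The members were proposed with results of these data known, so these counts describe them and test nothing about the family.

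Gimap8 differed most. It encodes the longest protein of the family, 688 residues against 291 to 328 for the other members of the cluster, with several GTP-binding domains in a row. Gimap8 was at 54.9 and 61.0 CPM in the LT-HSC libraries (718 and 986 reads), against 7.84 and 16.0 CPM in the ST-HSC libraries (118 and 237 reads). Both LT-HSC libraries were high and close to each other, both ST-HSC libraries were low, and the groups did not overlap. LT-HSC averaged 58.0 ± 4.31 CPM and ST-HSC averaged 11.9 ± 5.75 CPM (SD, n = 2 each), a ratio of 4.87. On the log2 scale the fold change was 2.27 ± 0.70 (SE), with an unadjusted 95% interval of 0.47 to 4.06, and it did not pass over all genes (limma adjusted p = 0.720). It stood at rank 454 of the 12608 tested genes by fold change. Without ST-HSC replicate 1 it was 1.80, and without ST-HSC replicate 2 it was 2.74. The unadjusted limma p stayed under 0.05 without ST-HSC replicate 2 and rose above it without either of the LT-HSC libraries or without ST-HSC replicate 1.

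Gimap9 lies next to Gimap8 in the cluster. It was at 109.9 and 127 CPM in the LT-HSC libraries, against 55.9 and 65.2 CPM in the ST-HSC libraries. The libraries of each group were close, differing by 0.21 in LT-HSC and 0.22 in ST-HSC on the log2 scale, and the groups did not overlap. LT-HSC averaged 118 ± 12.1 CPM and ST-HSC averaged 60.6 ± 6.52 CPM (SD, n = 2 each), a ratio of 1.96. The fold change was 0.96 ± 0.34 (SE) on the log2 scale, with an unadjusted 95% interval of 0.08 to 1.83 (limma adjusted p = 0.752). Leaving out any 1 library, or taking the replicate number as a block, raised the unadjusted limma p above 0.05.

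**Figure D2:**
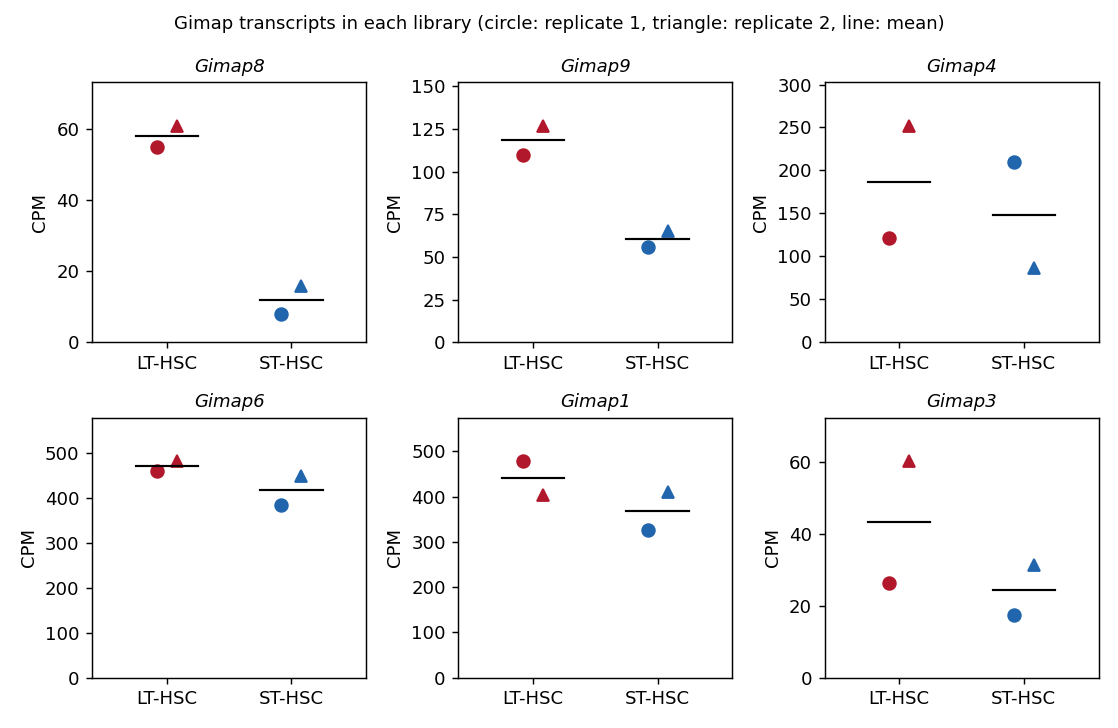
CPM of each listed Gimap gene in each library, with LT-HSC on the left and ST-HSC on the right of each panel, circles for replicate 1, triangles for replicate 2 and a line at the mean of the 2 libraries. Gimap8 (54.9 and 61.0 CPM against 7.84 and 16.0 CPM), Gimap9 and, by a small margin, Gimap6 show groups that do not overlap. The groups of Gimap4, Gimap1 and Gimap3 overlap.

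Gimap6 and Gimap1 carried most of the reads of the family. Gimap6, whose protein binds the Atg8-family protein GABARAPL2 in human cells and acts in autophagy, was at 459 and 482 CPM in the LT-HSC libraries, against 384 and 449 CPM in the ST-HSC libraries. The groups did not overlap, LT-HSC being higher by a small margin. Its log2 fold change was 0.18 ± 0.17 (SE), with an unadjusted 95% interval of -0.26 to 0.62 (limma adjusted p = 0.944). Gimap1, which mature B and T cells need for survival in mice, was at 478 and 403 CPM in LT-HSC, against 326 and 410 CPM in ST-HSC. ST-HSC 2 lay above LT-HSC 2, so the groups overlapped. The log2 fold change was 0.26 ± 0.21 (SE), with an interval of -0.27 to 0.80 (limma adjusted p = 0.901). These intervals leave room for a change of either sign, and neither reaches a doubling. An antisense transcript overlaps Gimap1 in the GENCODE annotation, and since no strand setting is given, reads of both cannot be told apart.

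Gimap4 and Gimap3 varied within groups as much as between them. Gimap4, which speeds the death of T cells in mice, was at 121 and 252 CPM in the LT-HSC libraries, against 210.4 and 86.5 CPM in the ST-HSC libraries. LT-HSC 2 was highest and ST-HSC 2 lowest, and the groups overlapped. The 2 libraries of a group differed by 1.05 in LT-HSC and 1.27 in ST-HSC on the log2 scale, where the median tested gene differed by 0.68 and 0.56. The log2 fold change was 0.37 ± 0.58 (SE) with a limma adjusted p of 0.9998, and it was -0.16 without LT-HSC replicate 2 and -0.27 without ST-HSC replicate 2. Gimap3, the closest relative of Gimap5, was at 26.4 and 60.3 CPM in LT-HSC, against 17.5 and 31.4 CPM in ST-HSC. LT-HSC 1 lay below ST-HSC 2, so the groups overlapped here too. Its log2 fold change was 0.74 ± 0.73 (SE), with a limma adjusted p of 0.948, and it ranged from 0.16 without LT-HSC replicate 2 to 1.33 without LT-HSC replicate 1. The coding sequences of Gimap3 and Gimap5 are 87.8% identical, and their transcripts share an unbroken run of 140 identical bases. Reads from that run fit both genes, so Gimap3 values are uncertain. In every other pair of the cluster the identity was 65.1% or less, with shared runs of at most 17 bases.

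**Figure D3:**
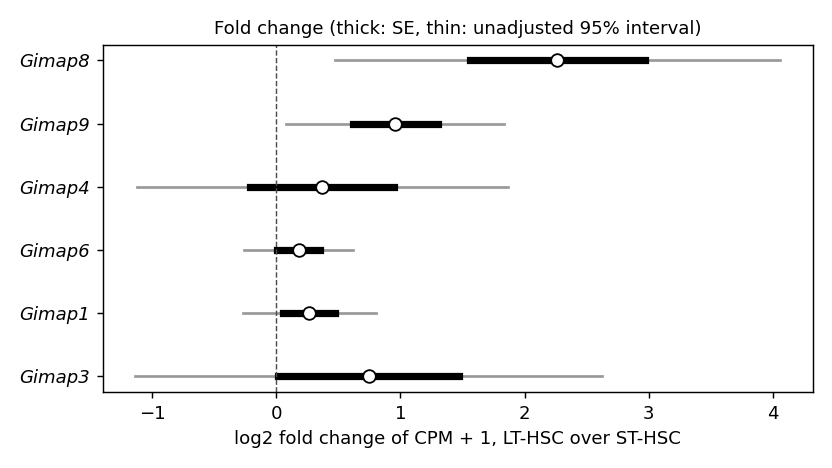
The log2 fold change of CPM + 1, LT-HSC over ST-HSC, for each listed Gimap gene from the limma fit over all genes, with thick bars for the SE and thin bars for the unadjusted 95% interval. The intervals of Gimap8 and Gimap9 lie above 0 and those of the other 4 members include 0, and no member passed after adjustment.

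The make-up of the family's transcripts followed from these values. Summed over the 6 members the level was 1250 and 1385 CPM in the LT-HSC libraries, against 1002 and 1058 CPM in the ST-HSC libraries, so that LT-HSC averaged 1317 ± 95.6 CPM and ST-HSC averaged 1030 ± 40.0 CPM (SD, n = 2 each). Gimap1 and Gimap6 together made up 75.03% and 63.9% of that sum in LT-HSC, against 70.9% and 81.2% in ST-HSC, and these shares overlapped. Gimap8 made up 4.39% and 4.41% in LT-HSC, against 0.783% and 1.51% in ST-HSC. Relative to Gimap6 in the same library, the log2 level of Gimap8 was -3.06 and -2.98 in LT-HSC, against -5.62 and -4.82 in ST-HSC, a difference of 2.19. The same ratio of Gimap9 to Gimap6 was -2.06 and -1.92 in LT-HSC, against -2.78 and -2.79 in ST-HSC, a difference of 0.79. Gimap8 also stood apart from its neighbour, with a log2 ratio to Gimap9 of -1.001 and -1.057 in LT-HSC, against -2.84 and -2.03 in ST-HSC. For these 3 ratios the groups did not overlap, and the two-sided exact permutation p was 0.333, the smallest that 2 libraries against 2 allow (adjusted p = 0.667 over the 6 ratios computed). That test could not reach 0.05 whatever the values, so it decides nothing about these ratios. Gimap8 and Gimap9 are also the members that differed most, so the ratios restate that. No share over other gene pairs was computed. For the ratios of Gimap3, Gimap4 and Gimap1 to Gimap6 the groups overlapped (exact p = 0.667, 1 and 1).

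Genes beside the cluster were read for comparison. On the Gimap8 side the nearest RefSeq entry was AI854703, a transcribed pseudogene. AI854703 was at 146 and 83.5 CPM in the LT-HSC libraries, against 64.2 and 72.9 CPM in the ST-HSC libraries, with a log2 fold change of 0.68 ± 0.41 (SE, limma adjusted p = 0.854). Its groups did not overlap. Farther out, the zinc finger gene Zfp775 was at 16.1 and 0 CPM in LT-HSC, against 0.399 and 0.607 CPM in ST-HSC, and did not pass the filter. Of the 6 nearest RefSeq genes, 3 on either side, the other 4 were not analysed here. On the Gimap3 side the next listed genes were Tmem176b and Tmem176a, which encode related membrane proteins and were chosen after their values were seen. Tmem176b was at 231 and 171 CPM in LT-HSC, against 176 and 181 CPM in ST-HSC, and its groups overlapped. Tmem176a was at 129.8 and 107 CPM in LT-HSC, against 95.9 and 86.5 CPM in ST-HSC, with a log2 fold change of 0.37 ± 0.31 (SE, limma adjusted p = 0.918). The groups of Tmem176a did not overlap.

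Because Gimap genes are best known from lymphocytes, markers of T and NK cells were set beside them. Of 26 such markers, 12 had at most 1 read in all 4 libraries. They were Cd3d and Cd3e of the T cell receptor complex, Cd2, Cd5, Cd6, Zap70, Klrd1, Ncr1, Il2rb, Prf1, Gzma and Gzmb. The summed level of the 26 markers was 150.1 and 303 CPM in LT-HSC, against 329 and 297 CPM in ST-HSC. Of 9 tested markers, 0 passed in either direction by limma, with a median log2 fold change of -1.26. The smallest p-values belonged to Nkg7, a cytotoxic granule gene, at 13.2 and 38.1 CPM in LT-HSC against 64.4 and 97.3 CPM in ST-HSC, and to Lck, a T cell kinase gene, at 16.4 and 3.77 CPM in LT-HSC against 51.4 and 35.7 CPM in ST-HSC. In 1 of the 9 tested markers both LT-HSC libraries lay above the ST-HSC libraries, and in 5 they lay below (16.1% and 17.5% of all tested genes). The marker that lay above was Klrb1c, an NK cell receptor gene, at 8.79 and 59.7 CPM in LT-HSC against 0 and 4.65 CPM in ST-HSC, with a log2 fold change of 3.36 ± 1.51 (SE, limma adjusted p = 0.782). Cd3g, a further gene of the T cell receptor complex, missed the filter, with 1.53 and 0.929 CPM in the LT-HSC libraries against 0 and 0 CPM in ST-HSC. Klrb1c and Cd3g were picked with their values in view. The part of T and NK cells in the Gimap values was not tested.

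The other lists of blood and vessel cells were also without a call by limma. Among 10 listed B cell markers, Pax5, Cd22 and Fcrla had at most 1 read in all libraries, and the sum was 231 and 149 CPM in LT-HSC, against 147 and 170.1 CPM in ST-HSC. Most of that sum was Cd79b, at 209 and 130 CPM in LT-HSC, against 145 and 91.8 CPM in ST-HSC. Igll1 was at 56.2 CPM in ST-HSC 2 and at most at 0.332 CPM in the other libraries. Cd79b and Igll1 were picked with their values in view. Of the 3 tested B cell genes, Blnk (2.70 ± 1.31 SE) and Vpreb1 (-1.70 ± 0.96 SE) had the smallest p. Of 8 listed lymphoid progenitor genes, Il7r, Dntt and Ly6d had at most 1 read everywhere, and the sum was 176 and 92.0 CPM in LT-HSC, against 179.9 and 201 CPM in ST-HSC. Flt3, a cytokine receptor gene of that list, had a log2 fold change of -2.02 ± 0.86 (SE). Endothelial genes summed to 1426 and 1216 CPM in LT-HSC, against 1217 and 958 CPM in ST-HSC, with Plvap and Lyve1 at most at 1 read and 0 of 9 tested past the threshold. Their smallest p belonged to Stab2 (log2 fold change -4.46 ± 1.02 SE) and Esam (0.52 ± 0.24 SE). Granulocyte and monocyte genes summed to 535 and 403 CPM in LT-HSC, against 501 and 452 CPM in ST-HSC, with Mpo (-3.89 ± 1.02 SE) and S100a9 (-1.09 ± 0.85 SE) at the smallest p, and Ctsg at most at 1 read. Erythroid and megakaryocyte genes summed to 523 and 422 CPM in LT-HSC, against 647 and 604 CPM in ST-HSC, with Itga2b (-4.78 ± 0.74 SE) and Aqp1 (-4.14 ± 1.07 SE) at the smallest p. The median log2 fold change of tested genes was 0.51 over 3 B cell genes, -0.08 over 5 lymphoid progenitor genes, 0.24 over 9 endothelial genes, -0.58 over 7 granulocyte and monocyte genes and -0.13 over 9 erythroid and megakaryocyte genes. Counts with both LT-HSC libraries above, then below, the ST-HSC libraries compare with 16.1% and 17.5% of all tested genes. In that order of lists they were 1 and 1, 0 and 3, 3 and 2, 1 and 2, and 1 and 5. At an unadjusted limma p under 0.05, 3 erythroid and megakaryocyte, 1 endothelial and 1 granulocyte and monocyte gene were lower (3.59% of all tested genes). In these lists 0 were higher (2.92%). The part of these cells in the Gimap values was not tested.

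Partners of the Gimap proteins were described from lists. The survival genes of the Bcl2 family and Hspa8, a chaperone gene set beside Gimap5 in stem cells, had a median log2 fold change of 0.01 over 11 tested genes, and 0 passed in either direction by limma. The smallest p belonged to Bcl2l11, which encodes the death protein Bim, at 0.459 and 2.66 CPM in the LT-HSC libraries, against 76.5 and 65.8 CPM in the ST-HSC libraries. It was low in both LT-HSC libraries, with a log2 fold change of -4.96 ± 0.98 (SE) and an adjusted p of 0.718. Next was Bok, a Bcl2-related death gene, with a log2 fold change of -2.56 ± 1.204 (SE). Mcl1, the survival gene tied to Gimap5 in mouse HSCs, which was chosen after its values were seen, was at 181 and 175 CPM in LT-HSC, against 138 and 144 CPM in ST-HSC, with 0.34 ± 0.25 (SE, limma adjusted p = 0.881). The Atg8 genes, to whose family the Gimap6 partner belongs, were close in all libraries. Gabarapl2 had a log2 fold change of 0.15 ± 0.29 (SE), Gabarap had 0.14 ± 0.24 (SE), and 0 of 3 tested genes passed by limma. Gsk3b, a kinase gene linked to Gimap5 in T cells, was at 173 and 77.7 CPM in LT-HSC, against 79.0 and 108 CPM in ST-HSC.

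Other GTP-binding families gave a scale for the Gimap values. Interferon-inducible GTPases, which guard cells against intracellular pathogens, had a median log2 fold change of 0.54 over 11 tested genes, with 7 above both ST-HSC libraries (16.1% of all tested genes), 0 below both (17.5%) and 0 past the threshold by limma. Gbp4 was at 64.5 and 56.5 CPM in LT-HSC, against 18.6 and 6.20 CPM in ST-HSC, with a log2 fold change of 2.37 ± 0.78 (SE, adjusted p = 0.744). Igtp followed by p, with 0.54 ± 0.21 (SE, adjusted p = 0.767). The septins, filament-forming proteins whose GTP-binding fold is related to that of Gimap proteins, had a median of -0.06 over 9 tested genes, with 3 above both ST-HSC libraries, 2 below both, set against the same shares of all tested genes, and 0 past the threshold. Sept4 (log2 fold change -3.58 ± 1.43 SE) and Sept7 (-0.52 ± 0.23 SE) had the smallest p. No difference between the families was tested.

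**Figure D4:**
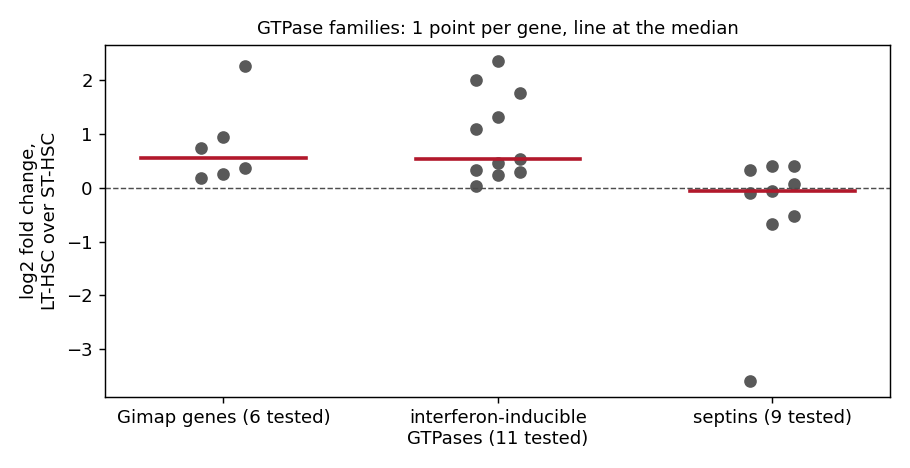
Log2 fold change, LT-HSC over ST-HSC, with 1 point per tested gene of the Gimap genes, the interferon-inducible GTPases and the septins, and a red line at the median. The medians are 0.56, 0.54 and -0.06, and no gene shown passed the test over all genes.

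Transcription factors of the stem and lymphoid compartments had a median log2 fold change of 0.28 over 9 tested genes, with 0 past the threshold by limma. Ikzf1, which encodes Ikaros, a zinc finger factor of lymphoid development, was at 150.1 and 117 CPM in the LT-HSC libraries, against 356 and 372 CPM in the ST-HSC libraries. Both LT-HSC libraries were below both ST-HSC libraries, with a log2 fold change of -1.45 ± 0.24 (SE, adjusted p = 0.718). Erg, an ETS factor of stem cells, was at 273 and 400.0 CPM in LT-HSC, against 183 and 225 CPM in ST-HSC, with 0.70 ± 0.28 (SE, adjusted p = 0.767). Among the HSC-associated genes the smallest p belonged to Mecom (0.87 ± 0.21 SE) and Procr (1.15 ± 0.29 SE), and 0 of 11 passed. Their median log2 fold change was 0.56, as for the Gimap members. In 7 of the 11 genes both LT-HSC libraries lay above the ST-HSC libraries and in 0 they lay below (16.1% and 17.5% of all tested genes), and at an unadjusted p under 0.05 by limma 3 were higher and 0 lower (2.92% and 3.59% of all tested genes).

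The genes whose profile over the 4 libraries was closest to the summed Gimap level were Ogt, Serf1, Pik3ip1, Chd6 and Acadm. The root mean square distance of their centred log2(CPM + 1) values was 0.017 to 0.030, and 107 of 11355 eligible genes lay within 0.1. With 4 libraries such a likeness describes levels only. Gimap1 and Gimap6, the members that differed least, made up 63.9% to 81.2% of the summed level, so the likeness is mostly to them. Ogt, the closest, was at 725 and 779 CPM in LT-HSC, against 567 and 607 CPM in ST-HSC.

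The fold changes of the members differed in how far they rested on single libraries. Over 15 other settings Gimap8 stayed between 1.80 and 2.74 and Gimap9 between 0.85 and 1.06, on the log2 scale. For Gimap6 the range was 0.07 to 0.29 and for Gimap1 it was 0.10 to 0.43.

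**Figure D5:**
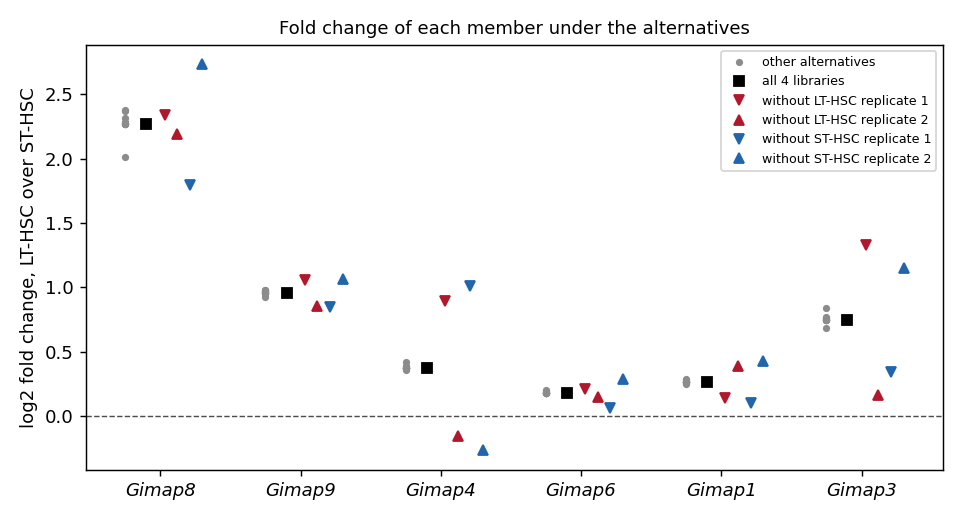
Log2 fold change, LT-HSC over ST-HSC, of each listed Gimap gene with all 4 libraries (black square), with 1 library left out (triangles) and under the other alternatives (grey points). Gimap8 and Gimap9 stay above 0.8 in all of them, and Gimap4 falls below 0 without LT-HSC replicate 2 or ST-HSC replicate 2.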

How the data were processed

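RNA of 2000 sorted cells per library was made into cDNA with the SMARTer kit, per the labels' protocols. TopHat and the mm9 build are named in the submitters' processing notes, and the sources used here give neither the read counter nor the gene annotation. Each deposited file gives log2 values per gene made by the authors. Their steps show whole reads scaled to CPM by the library total. Every value standing for at most 100 reads lay within 0.1 of a whole number. Reading the lowest value as genes without a read raised to 1 read brought the summed reads within 0.00132% of the total that the lowest step implies. Subtracting 1 read from every gene left 0.0853% to 0.116% missing, and was kept as an alternative. Genes at the lowest value, which have 0 or 1 read, were set to 0.

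A gene was tested if 2 or more libraries reached 1 CPM (12608 genes), as log2(CPM + 1) with limma 3.58.1 in R 4.3.3, with trend and robust shrinkage (statmod 1.5.0), LT-HSC against ST-HSC. Benjamini-Hochberg adjustment ran over the whole table, and the threshold was an adjusted p of 0.05. The added 1 CPM makes the fold changes of low genes too small. Coding identity came from global alignment of GENCODE M21 transcripts with Biopython 1.88. The test was tried on simulated data with the same relative spread for every gene. There it called 58.4% of genes with a log2 change of 2 in either direction, and 97% with a change of 3. In the real libraries the spread differed between genes and 0 passed, so those shares do not carry over. Named genes were all members, the 3 RefSeq genes on either side, up to 2 genes per list with the smallest p, and the 5 closest profiles among genes with a mean of at least 5 CPM. The sort markers lie outside that rule. So do Tmem176b, Tmem176a, Klrb1c, Cd3g, Cd79b, Igll1 and Mcl1, which were picked with their values in view. The members and lists were chosen with earlier results of these data known. The replicate numbers of the 2 groups were not taken to pair libraries. Reads were amplified and carry no molecular identifiers, so their number gives counting error only. Single values of 2 genes on the marker lists are not reported here.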

Additional observations from a re-analysis of the deposited data

How the results depend on the processing

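The alternatives were other scaling factors, filters and added values, the deposited log2 values as they are, limma-voom, no robust shrinkage, a threshold of 0.1, the replicate block and leaving out each library. Subtracting 1 read from every gene was chosen after seeing the data. Under these settings 0 genes and 0 members passed the threshold by limma or limma-voom, and with the replicate block 0 members passed and 401 genes were higher and 486 lower at an unadjusted p under 0.05. The replicate block left the fold changes as they were and moved the unadjusted p of Gimap9 above 0.05. The deviations of same-numbered libraries from their group means had a correlation of 0.051 across genes, and the labels state no shared animal or day. Without 1 library, the median fold change of the members ranged from 0.27 (without LT-HSC replicate 2) to 0.98 (without LT-HSC replicate 1) on the log2 scale, where the lone library of a group is assumed to vary like those of the other group. It was 0.52 to 0.63 under the other alternatives. Gimap4 ranged from -0.27 to 1.01 with 1 library left out, with values of -0.16 without LT-HSC replicate 2 and -0.27 without ST-HSC replicate 2, and the cause was not tested. The other 5 members kept a positive fold change under all 15 alternatives with a value. The unadjusted p of Gimap8 was under 0.05 in 12 of them and that of Gimap9 in 10. The lowest member value rested on 118 reads.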
